A study of Mus musculus with 12 samples.

Results

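The day difference of each gene, its level at ZT22 against that at ZT10, was compared between tibialis anterior muscle labelled as lacking the REV-ERB receptors (KO) and wild-type (WT) muscle. All 12 of the 12 libraries of the series entered, and 9953 of the 14270 genes with values, those averaging at least 1 FPKM (fragments per kilobase of transcript per 1e+06 fragments), were tested. The quantity tested was the interaction, the log2 difference between ZT22 and ZT10 in KO minus the same difference in WT, on the log2(FPKM + 1) scale. Genes were called in limma at a Benjamini-Hochberg adjusted p under 0.05 over all genes tested. A called gene was sorted by its own day differences as flattened, reversed, enlarged or gained in KO. A gene was described as kept where its day difference was called with 1 direction in both genotypes and the interaction was not called.

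The libraries form 4 groups of 3, KO at ZT22, KO at ZT10, WT at ZT22 and WT at ZT10, and were made from total RNA of tibialis anterior, a fast muscle of the lower leg. The KO mice carry a knockout of the Rev-erbs that the series describes as specific to skeletal muscle. The labels used here give no age, sex, strain, Cre driver or allele and no treatment. Beyond naming each replicate as its own sample they say nothing of origin, so p-values measure the spread between these samples, which may be technical. ZT counts hours after lights on. The sample titles give ZT10 and ZT22 but the design text gives ZT0 and ZT12, so the hour of each group is uncertain. With 2 times per genotype no rhythm, amplitude or phase can be fitted, and time cannot be told apart from any harvest or library batch that went with it.

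The nuclear receptors REV-ERBα, encoded by Nr1d1, and REV-ERBβ, encoded by Nr1d2, repress transcription by recruiting the NCoR and HDAC3 corepressor. They occupy DNA elements that the activating ROR receptors also use, among them those of Arntl, which encodes the clock activator BMAL1. BMAL1 with CLOCK or NPAS2 binds E-boxes and drives Per, Cry, Dbp and the Rev-erb genes themselves, which closes the loop.

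The gene-level values did not show the labelled loss. Nr1d1 stood at 354, 369 and 328 FPKM in the KO libraries and 52.7, 54 and 37.99 in the WT libraries at ZT22, and at 419.99, 503 and 359 in KO and 37.03, 31.6 and 27.6 in WT at ZT10. The 6 libraries labelled KO thus lay above the 6 WT libraries. A transcript that has lost an exon is still counted, so these values are no check of such an allele. KO below is the label of a library, and every direction given for KO rests on that label. Depth, estimated from the step between low values, was roughly 10.9 to 13.42 in units of 1e+06 fragments. The 8 skeletal muscle markers summed to 60284 to 111755 FPKM in each library, and none was at 0. Within groups, KO ZT10 replicate 3 deviated by 0.243 (root mean square, log2) and the other libraries by 0.125 to 0.189.

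Promoter windows are shown first for 3 of the 4 genes called for the interaction and for Ciart, an E-box gene whose day difference was kept. The windows run from 250 bases before a RefSeq transcript start to 50 after it, a start that can differ from the GENCODE gene start given below, come from RefSeq (GRCm38.p6) and are written 5′ to 3′ on the gene's strand. Capitals mark AGGTCA, the core of the element shared by REV-ERB and ROR receptors, and CACGTG, the E-box, searched on both strands. The windows are chr7:113207261-113207560 (plus strand) for Arntl, chr7:45704997-45705296 (plus) for Dbp, chr11:120151302-120151601 (minus) for Slc38a10 and chr3:95882179-95882478 (minus) for Ciart.
Arntl: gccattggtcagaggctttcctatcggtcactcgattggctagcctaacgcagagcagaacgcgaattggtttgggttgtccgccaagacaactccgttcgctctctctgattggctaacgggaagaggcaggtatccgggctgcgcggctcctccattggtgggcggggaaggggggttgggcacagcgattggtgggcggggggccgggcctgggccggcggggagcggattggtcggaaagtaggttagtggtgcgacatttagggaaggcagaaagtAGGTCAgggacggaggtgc
Dbp: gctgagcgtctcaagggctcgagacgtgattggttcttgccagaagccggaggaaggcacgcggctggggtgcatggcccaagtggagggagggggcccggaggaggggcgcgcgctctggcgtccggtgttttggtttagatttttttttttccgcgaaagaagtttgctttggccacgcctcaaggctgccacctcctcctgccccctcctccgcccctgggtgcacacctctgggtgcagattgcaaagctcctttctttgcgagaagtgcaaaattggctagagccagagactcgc
Slc38a10: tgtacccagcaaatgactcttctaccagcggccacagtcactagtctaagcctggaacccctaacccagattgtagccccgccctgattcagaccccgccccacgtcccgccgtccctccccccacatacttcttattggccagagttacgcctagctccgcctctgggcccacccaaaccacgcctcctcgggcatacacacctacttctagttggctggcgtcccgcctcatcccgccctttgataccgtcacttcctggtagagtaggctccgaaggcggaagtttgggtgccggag
Ciart: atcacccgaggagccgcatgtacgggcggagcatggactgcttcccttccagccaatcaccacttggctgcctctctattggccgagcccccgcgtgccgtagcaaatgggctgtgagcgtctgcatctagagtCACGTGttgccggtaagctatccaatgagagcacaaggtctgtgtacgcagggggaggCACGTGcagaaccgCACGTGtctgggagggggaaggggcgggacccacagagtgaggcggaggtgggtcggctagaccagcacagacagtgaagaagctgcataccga
Arntl has a second window, chr7:113207215-113207514, which overlaps the one shown and held neither string. The one shown was chosen for its match. The Arntl window shown held 1 AGGTCA and the Ciart window 3 CACGTG, while neither string was in the Dbp or Slc38a10 window. AGGTCA was in 16.3% and CACGTG in 7.15% of the 32851 mouse windows of this length, and in 12.4% and 10.3% of the 10226 windows of genes tested. Among the 19 clock genes tested, 16 had a window, 5 of them with AGGTCA and 5 with CACGTG in at least 1 window. Counted the same way, 14.9% of the 7931 tested genes with a window held AGGTCA and 12.4% held CACGTG. A match is a string of letters and was not tested as a binding site, and its absence covers this window only.

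The interaction was called for 4 of 9953 genes (0.0402%), 2 above and 2 below 0 (0.0201% each). The day difference of Arntl was flattened in KO, as was that of Dbp, a PAR bZIP factor that carries clock time to output genes. Gpcpd1, a phosphodiesterase that splits glycerophosphocholine, and Slc38a10, of the SLC38 family of amino acid transporters, had opposite day differences in KO and WT.

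Arntl (chromosome 7, 113207465 to 113314126, plus strand, GRCm38, GENCODE M21) had 46.8, 44.1 and 49.1 FPKM in KO at ZT22 and 32.97, 36.6 and 41.97 in KO at ZT10. In WT it had 17.6, 19.2 and 15.3 FPKM at ZT22 and 3.63, 4.09 and 3.32 at ZT10. ZT22 lay above ZT10 in both genotypes with no overlap, and the lowest KO library lay above the highest WT library. The day difference on the log2 scale was 0.33 ± 0.11 in KO (limma adjusted p = 0.0293) and 1.97 ± 0.11 in WT (adjusted p = 2.48e-06), an interaction of -1.64 ± 0.15 (95% interval -1.98 to -1.31, limma adjusted p = 0.0012). The KO difference by itself was called as deposited, but not in 4 of the 12 fits that left out 1 library (adjusted p up to 0.108), under median-of-ratios scaling (0.131) or with a trend in transcript length removed (0.0757). The flattening is on the log scale. In FPKM, where no test was run, the difference was 9.49 ± 2.98 in KO and 13.68 ± 1.17 in WT (standard errors), which differ by -4.193 ± 3.2.

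Dbp (chromosome 7, 45705088 to 45710203, plus strand) had 89.3, 80.2 and 86.5 FPKM in KO at ZT22 and 129, 148 and 80.1 in KO at ZT10. Its WT libraries had 7.57, 6.72 and 6.62 FPKM at ZT22 and 46.6, 45.01 and 51.9 at ZT10. The times overlapped in KO, where replicate 3 at ZT10 was the low one, and stood wide apart in WT. The day difference was -0.43 ± 0.17 in KO (limma adjusted p = 0.0574) and -2.62 ± 0.17 in WT (adjusted p = 6.45e-06), and the interaction 2.18 ± 0.24 (95% interval 1.66 to 2.71, adjusted p = 0.00399). The KO difference was called without KO ZT10 replicate 3 (-0.69, adjusted p = 0.000233) and under median-of-ratios scaling (0.0215). In FPKM the difference was -33.96 ± 20.5 in KO and -40.88 ± 2.12 in WT, which differ by 6.92 ± 20.6. The interaction of Arntl and Dbp was called in each of the 12 fits that left out 1 library.

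Gpcpd1 (chromosome 2, 132529082 to 132587729, minus strand) had 146, 154 and 160.1 FPKM in KO at ZT22 and 123, 114 and 107 in KO at ZT10, so ZT22 was the higher time. In WT it had 114, 93.7 and 124 FPKM at ZT22 and 159, 188 and 203 at ZT10, with ZT22 the lower. The day difference was 0.42 ± 0.11 in KO and -0.72 ± 0.11 in WT, and the interaction 1.15 ± 0.16 (limma adjusted p = 0.0099, 0.00117 and 0.023 in that order).

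Slc38a10 (chromosome 11, 120103960 to 120151346, minus strand) went the other way. It had 14.3, 13.3 and 17.6 FPKM in KO at ZT22 and 23.8, 28.1 and 27.2 in KO at ZT10. The WT values were 14.3, 16.7 and 14.1 FPKM at ZT22 and 11.2, 12.1 and 12.04 at ZT10. The ZT10 libraries of KO stood above all others. The day difference was -0.77 ± 0.11 in KO and 0.33 ± 0.11 in WT, and the interaction -1.09 ± 0.15 (limma adjusted p = 0.000203, 0.0454 and 0.023 in that order). The call was lost for Gpcpd1 in 7 of the 12 fits that left out a library (adjusted p up to 0.106) and for Slc38a10 in 7 (up to 0.117), and for Gpcpd1 under median-of-ratios scaling. The opposite signs rest on day differences near the threshold. That of Slc38a10 in WT was not called in 8 of these fits (adjusted p up to 0.174), under median-of-ratios scaling (0.121), without the filter on low values (0.0555) or with the length trend removed (0.279). That of Gpcpd1 in KO was not called under median-of-ratios scaling (0.0829) or with the length trend removed (0.107).

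**Figure D1:**
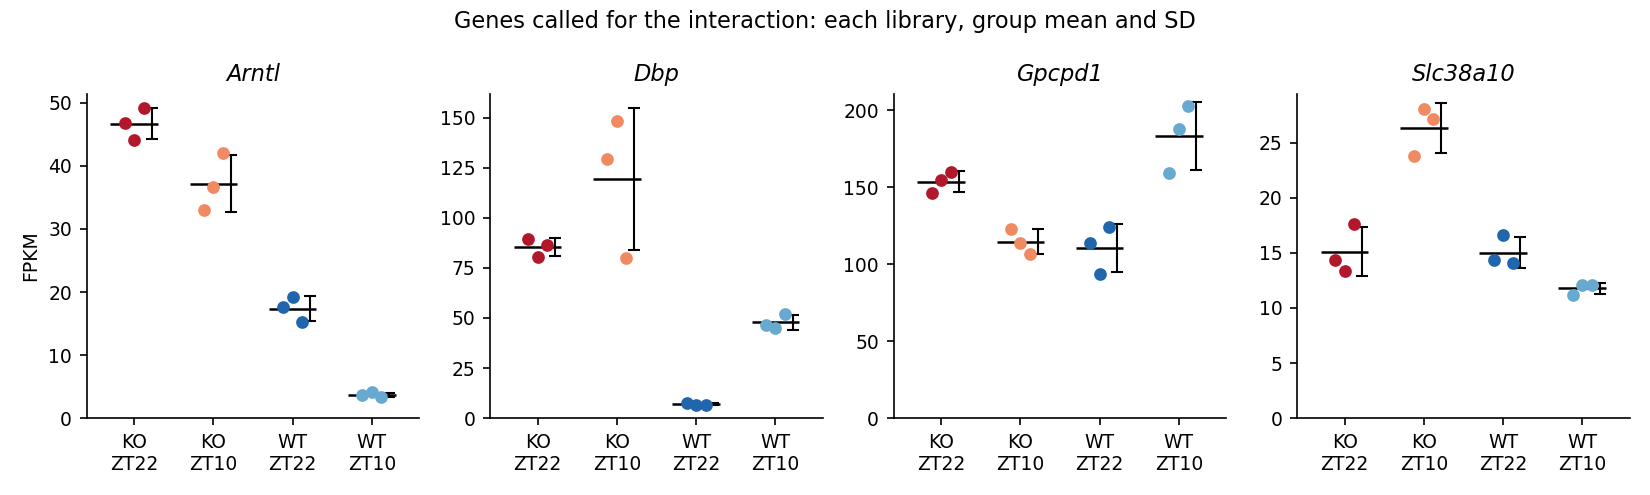
FPKM of the 4 genes called for the interaction, with 1 point per library, the group mean (line) and the SD (bar, n = 3). Arntl spans 33.0 to 49.1 FPKM across the KO libraries and 3.32 to 19.2 across the WT libraries, and the order of ZT22 and ZT10 differs between KO and WT for Gpcpd1 and Slc38a10.

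No other gene passed the threshold. The largest adjusted p among the called genes was 0.023, the smallest among the others 0.0676, which 28 genes shared. At an unadjusted p under 0.05 there were 1696 genes (17%), 910 above (9.14%) and 786 below 0 (7.9%). At an adjusted p under 0.1, a looser limit chosen after seeing the data, 148 genes (1.49%) had an interaction, of which 23 were flattened, 14 reversed, 19 enlarged and 92 gained. The number called at 0.05 depended on single libraries. It was 68 without KO ZT10 replicate 1, 47 without KO ZT10 replicate 3, 77 without WT ZT10 replicate 1 and 18 without WT ZT22 replicate 3, and 2 to 4 without any other.

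Of the 28 genes next to the threshold, the interactions farthest from 0 were those of Angptl2, a secreted angiopoietin-like protein (-1.42 ± 0.26), and Nos1, the neuronal nitric oxide synthase of muscle (1.40 ± 0.27), both farther than those of the called Gpcpd1 and Slc38a10 but with larger errors. Ube3a, an E3 ubiquitin ligase, had 23.8, 22.8 and 22.5 FPKM in KO at ZT22 against 7.58, 8.49 and 8.11 at ZT10, and in WT 16.02, 14.9 and 16.7 at ZT22 against 8.77, 11.7 and 12.3 at ZT10. It was higher at ZT22 in both genotypes, the WT call being lost with the trend in transcript length removed (adjusted p = 0.401), and the interaction was 0.90 ± 0.15 (limma adjusted p = 0.0676). Rnf13, another ubiquitin ligase, had 31.1, 31.6 and 30.1 FPKM in KO at ZT22 and 20.6, 21.4 and 20.04 at ZT10, while its WT libraries ran from 21.4 to 23.8 FPKM over both times. Its day difference was 0.56 ± 0.07 in KO (adjusted p = 0.000104) and 0.01 ± 0.07 in WT (adjusted p = 0.931), with an interaction of 0.55 ± 0.10. Asb5, a muscle gene of the SOCS-box family, showed the other pattern, with 151, 137 and 197 FPKM in KO at ZT22 and 161, 135 and 149 at ZT10. The WT libraries had 112, 109.7 and 125 FPKM at ZT22 and 191, 215 and 202 at ZT10. The KO times overlapped, the WT times did not, and the interaction was 0.91 ± 0.17 (adjusted p = 0.0676).

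Pdp1, the phosphatase that switches on the pyruvate dehydrogenase complex, had 14.9, 15.3 and 14.9 FPKM in KO at ZT22 and 10.96, 10.5 and 11.3 at ZT10. In WT it had 22.8, 21.6 and 24.1 at ZT22 and 26.8, 24.4 and 24.1 at ZT10. ZT22 was the higher time in KO (0.43 ± 0.07, limma adjusted p = 0.000749) and the day difference was not called in WT (-0.13 ± 0.07, adjusted p = 0.225), with an interaction of 0.56 ± 0.10 (adjusted p = 0.0676). The KO call was lost with the length trend removed (adjusted p = 0.069). Neurl1a, an E3 ubiquitin ligase, averaged 48.2 ± 0.964 FPKM (mean ± SD, n = 3, as for all averages given) at ZT22 and 94.5 ± 6.32 at ZT10 in KO and 56.9 ± 2.497 at ZT22 and 72.1 ± 3.54 at ZT10 in WT. Its fall at ZT22 was called in both and the interaction was -0.62 ± 0.10 (adjusted p = 0.0676). Eif3e, a translation initiation subunit, had an interaction of 0.52 ± 0.09 (adjusted p = 0.0676).

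In 14 genes (0.141%) the day difference was called in both genotypes with opposite signs, Gpcpd1, Slc38a10 and 12 whose interaction was not called. The 12 were singled out after their values were seen, and among them were Mbnl1, Mical2, Pdzrn3, Cnksr1, Vldlr, Crip3, Psmd14, Klhl7, Anapc11, Mcpt4 and Bnip3. The interactions of the 12 had adjusted p values of 0.0676 to 0.0926. The splicing factor Mbnl1 had 110.5, 109.9 and 111 FPKM in KO at ZT22 and 87.3, 84.6 and 93.4 at ZT10, and in WT 87.8, 98.1 and 95.8 at ZT22 and 106, 111 and 116 at ZT10. Its times did not overlap in either genotype, and the interaction was 0.56 ± 0.10. Its KO call was lost with the length trend removed (adjusted p = 0.901) and under median-of-ratios scaling (0.0515), and its WT call without WT ZT22 replicate 1 (0.117), WT ZT10 replicate 2 (0.0666) or WT ZT10 replicate 3 (0.0864).

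**Figure D2:**
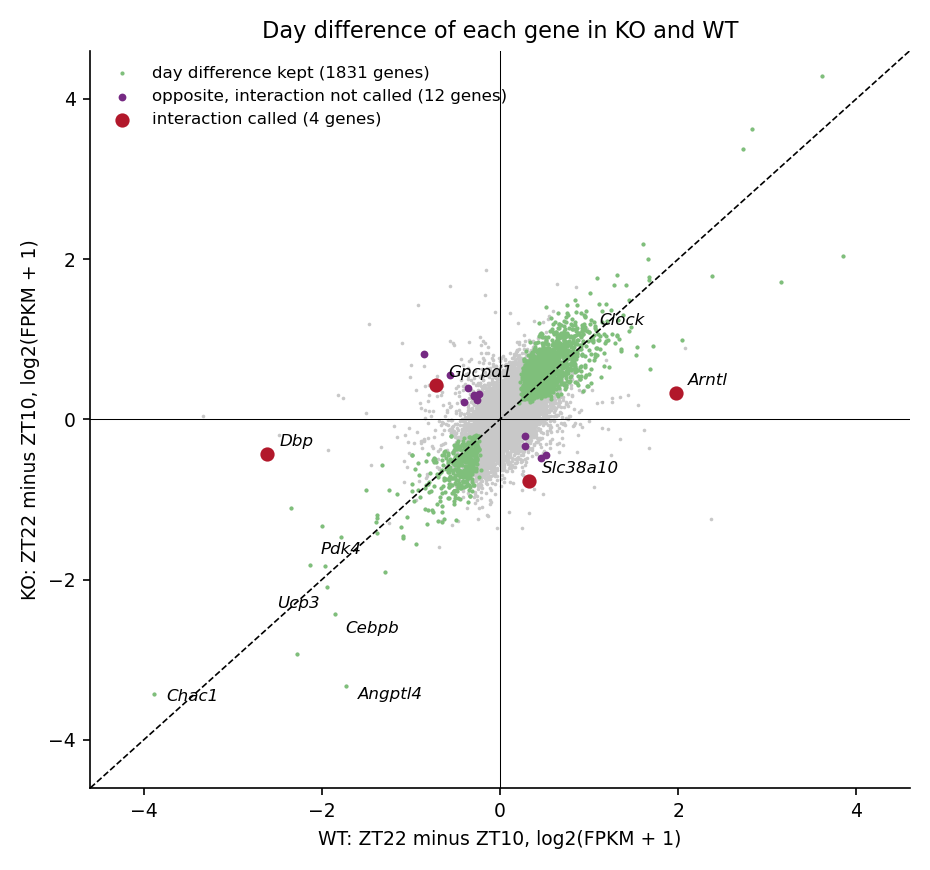
Day difference (ZT22 minus ZT10, log2) of the 9953 genes tested in KO (vertical) and WT (horizontal), with equality as a dashed line. The 4 genes called for the interaction are red, 12 with opposite called day differences but an uncalled interaction are purple, and the 1831 kept genes are green. Kept genes have 1 direction in both genotypes and need not lie on the dashed line, as for Angptl4 (-3.33 in KO and -1.73 in WT).

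Most day differences had 1 direction in KO and WT. ZT22 and ZT10 differed for 4239 genes (42.6%) in KO, 2872 higher (28.9%) and 1367 lower (13.7%) at ZT22. They differed for 2404 (24.2%) in WT, 1830 higher (18.4%) and 574 lower (5.77%). Both genotypes called 1846 genes (18.5%), 1832 of them with 1 sign. Of the 4797 genes called in at least 1 genotype, 90.62% had the same sign in the other, and 76.91% of all genes tested did. Across the 9953 genes, which share their libraries and are not independent, the KO and WT differences had a Pearson r of 0.684 and a Spearman rho of 0.681. The median absolute difference was 0.277 in KO and 0.2 in WT, and 2393 genes (24%) were called in KO but not WT and 558 (5.61%) in WT but not KO. That gap in counts is not a test of a genotype difference, and of these genes the interaction was called for Dbp alone.

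The higher and lower split depends on scaling. Under median-of-ratios scaling, which moved the median day difference by over 0.1 in KO, the called genes were 2036 higher and 2184 lower in KO and 1192 higher and 1127 lower in WT. The 10 most abundant genes took 24.1 to 27.4% of the FPKM total in ZT22 libraries and 28.9 to 31.6% in ZT10 libraries, and their part in the split was not tested. The median interaction stayed near 0, at 0.003 as deposited and -0.01 after that scaling.

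The day difference was kept in 1831 genes (18.4%), 1414 higher (14.2%) and 417 lower (4.19%) at ZT22. Under median-of-ratios scaling 1748 were kept, and 1092 with a trend in transcript length removed. The split by direction is as deposited and is not given for those settings. For 1210 genes, 12.2% of all tested, the 95% interval of the interaction also lay within 1.5-fold, 936 higher (9.4%) and 274 lower (2.75%). With 0.1 added in place of 1 this held for 813 genes. The interval lay within 1.5-fold in 5404 of all genes tested (54.3%), and its ends were a median of 0.365 from the estimate on the log2 scale. Kept genes included some of the largest day differences measured. The kept genes named next, other than Pdk4, were chosen after their values were seen.

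Pdk4, the kinase that shuts off pyruvate dehydrogenase in fasting, had 348, 166 and 179.6 FPKM in KO at ZT22 and 483, 1032 and 920.3 at ZT10, against 72.2, 205 and 184 in WT at ZT22 and 581, 687 and 589 at ZT10. Ucp3, the mitochondrial carrier of muscle that rises in fasting, had 47.4, 19.3 and 23.4 FPKM in KO at ZT22 and 96.7, 124 and 153 at ZT10, against 28.4, 49.96 and 53.9 in WT at ZT22 and 157, 166 and 174 at ZT10. In neither gene did the times overlap within a genotype. The interaction was 0.32 ± 0.55 for Pdk4 and -0.16 ± 0.42 for Ucp3 (limma adjusted p = 0.818 and 0.881), and their 95% intervals, -0.88 to 1.51 and -1.07 to 0.75, leave room for differences over 1.5-fold.

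Cebpb, a bZIP factor of stress and glucocorticoid responses, had 8.68, 10.6 and 9.1 FPKM in KO at ZT22 and 42.1, 49.9 and 79.9 at ZT10, against 8.58, 8.67 and 9.14 in WT at ZT22 and 29.1, 36.03 and 38.6 at ZT10. Its relative Cebpd had day differences of -1.83 ± 0.37 in KO and -1.96 ± 0.37 in WT. Chac1, a glutathione-degrading enzyme and ATF4 target, had 1.2, 3.69 and 2.57 FPKM in KO at ZT22 and 28.3, 41.8 and 35.98 at ZT10, against 5.01, 5.07 and 5.04 in WT at ZT22 and 70.95, 125 and 78.2 at ZT10. Its levels were lower in KO at each time, and its day difference was -3.43 ± 0.25 in KO and -3.89 ± 0.25 in WT (interaction 0.46 ± 0.36, limma adjusted p = 0.557).

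Angptl4, a secreted inhibitor of lipoprotein lipase, had 4.84, 5.43 and 1.24 FPKM in KO at ZT22 and 21.2, 41.6 and 89.9 at ZT10, against 0.59, 2.53 and 0.37 in WT at ZT22 and 3.98, 5.38 and 7.87 at ZT10. Its interaction of -1.60 ± 0.73 had a wide 95% interval, -3.19 to -0.01 (limma adjusted p = 0.289). The WT values of 0.59 and 0.37 lie where the added 1 compresses differences. With 0.1 added in place of 1 the WT day difference went from -1.73 to -2.57 and the interaction to -1.13 ± 0.97 (adjusted p = 0.596). The WT call of Angptl4 was lost with a robust empirical Bayes step (adjusted p = 0.0645) and in 5 of the 12 fits that left out a library (up to 0.0958). G0s2, an inhibitor of the lipase ATGL, ran the opposite way to these genes. It had 53.3, 21.4 and 32.5 FPKM in KO at ZT22 and 6.26, 5.01 and 25.2 at ZT10, overlapping through KO ZT10 replicate 3, against 42.6, 111 and 108 in WT at ZT22 and 6.67, 7.49 and 10.7 at ZT10. The ratio of mean FPKM at ZT22 to that at ZT10 was 2.94 in KO and 10.5 in WT, with an interaction of -1.43 ± 0.73 (adjusted p = 0.34), and the KO call was lost in 3 of these fits (up to 0.0752). The muscle ubiquitin ligase Trim63 (MuRF1) fell at ZT22 by 1.28 in KO and 1.39 in WT on the log2 scale, and Arrdc2, an arrestin domain gene, by 2.92 and 2.28 in that order.

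Of the 12 genes with the largest day differences among those kept within 1.5-fold, all but Tcap were higher at ZT22. Zfc3h1, which acts in nuclear RNA decay, had 6.52, 6.46 and 6.99 FPKM in KO at ZT22 and 1.99, 2.14 and 1.8 at ZT10, against 6.23, 5.61 and 5.54 in WT at ZT22 and 1.75, 1.77 and 2.09 at ZT10. Rgma, a BMP coreceptor, averaged 18.5 ± 2.897 FPKM in KO at ZT22 and 7.21 ± 0.125 at ZT10, and 16.4 ± 2.21 in WT at ZT22 and 5.92 ± 0.997 at ZT10. The histone methyltransferases Kmt2a and Setd1b rose at ZT22 in both genotypes, by 1.21 and 1.04 in KO and 1.05 and 1.12 in WT. The repressor Rest, Bcl9l, Mras, Zbtb37, Itga1, Hoxc11 and Ttyh2 rose by 1.02 to 1.23 in KO and 1.03 to 1.2 in WT. With the length trend removed the KO call of Zbtb37 was lost (0.36, limma adjusted p = 0.056). Zbtb37 in both genotypes and Rest in KO lay under 1 FPKM at ZT10, where the added 1 compresses differences. With 0.1 added in place of 1, Zbtb37 rose by 2.03 in KO and 2.07 in WT (interaction -0.04 ± 0.40). Rest then rose by 1.98 in KO and 1.62 in WT (interaction 0.36 ± 0.36). Both errors leave room for differences over 1.5-fold. Tcap (telethonin), a Z-disc protein, was lower at ZT22, with 2507, 2474 and 2516 FPKM in KO at ZT22 and 5356, 5443 and 6719.5 at ZT10, against 1798, 1753 and 1619.5 in WT at ZT22 and 3794, 3577 and 3273 at ZT10. Its levels were higher in KO at each time, while the day difference was -1.22 ± 0.10 in KO and -1.04 ± 0.10 in WT.

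**Figure D3:**
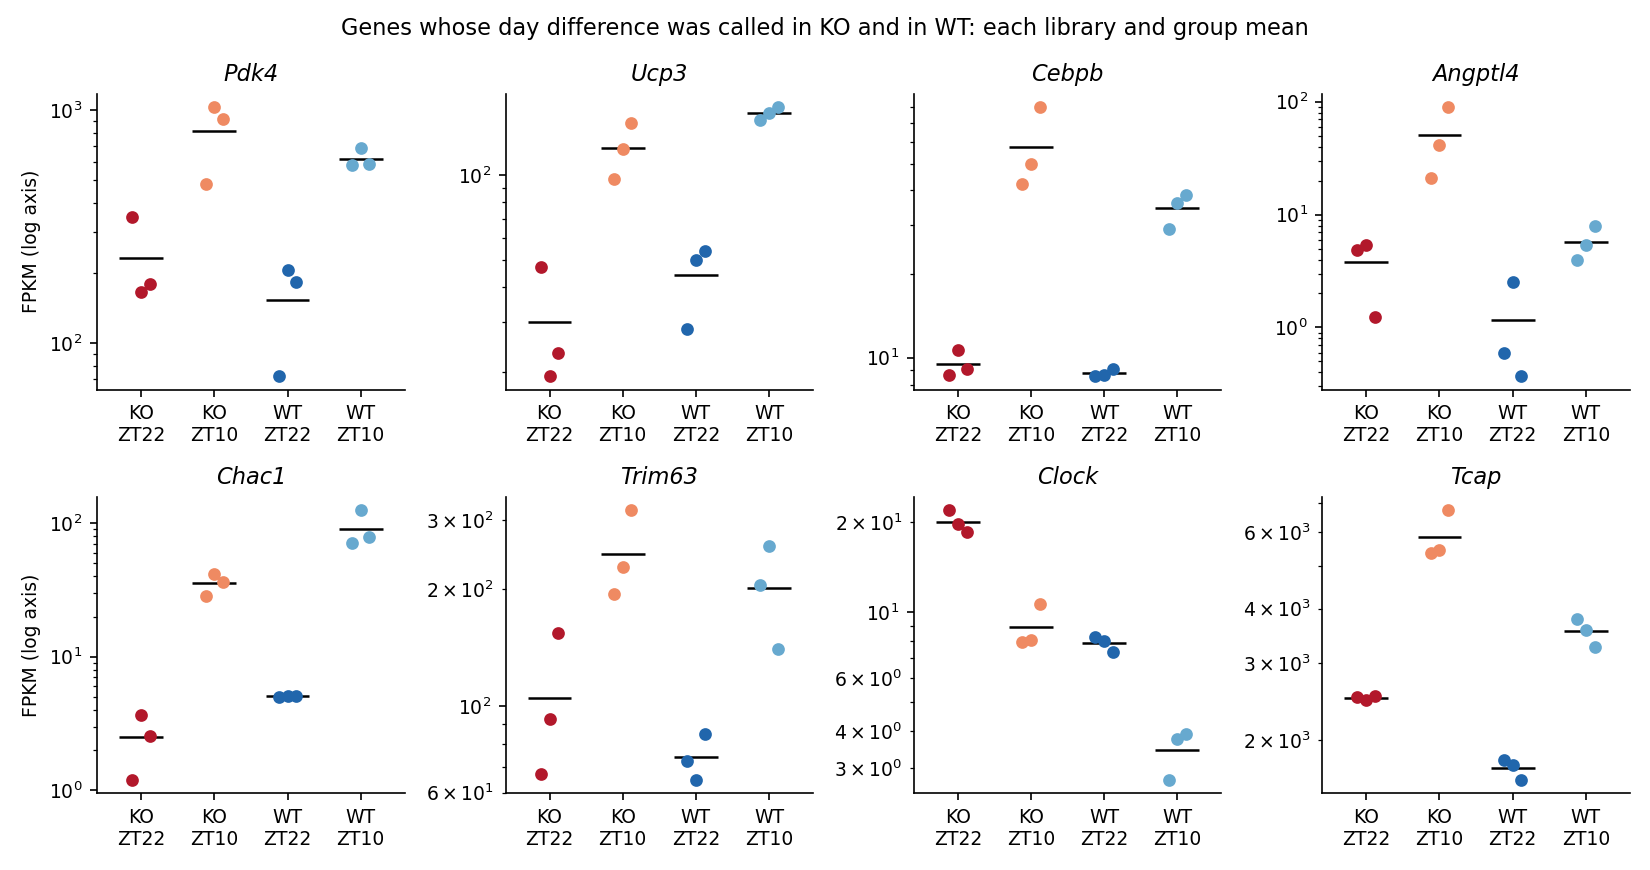
FPKM on a log axis of 8 genes whose day difference was called in KO and in WT, with 1 point per library and the group mean as a line (n = 3). Clock is high at ZT22 and the other 7 are low at ZT22 in both genotypes, while levels can differ between KO and WT, as for Chac1 and Clock.

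Both partners of BMAL1 kept their day differences. Clock, the partner of BMAL1, had 21.8, 19.7 and 18.5 FPKM in KO at ZT22 and 7.95, 8.08 and 10.6 at ZT10, against 8.26, 8.01 and 7.37 in WT at ZT22 and 2.75, 3.75 and 3.9 at ZT10. All groups but KO at ZT10 and WT at ZT22 were separate, and the day difference, 1.09 ± 0.13 in KO and 1.00 ± 0.13 in WT, was kept (interaction 0.10 ± 0.18, 95% interval -0.30 to 0.49, limma adjusted p = 0.835). Npas2, which can replace CLOCK, had 7.38, 7.66 and 6.53 FPKM in KO at ZT22 and 2.9, 2.44 and 2.43 at ZT10, against 0.81, 0.84 and 0.56 in WT at ZT22 and 0.08, 0.08 and 0.12 at ZT10. It was also kept, at 1.19 ± 0.10 in KO and 0.66 ± 0.10 in WT, but its WT values lie under 1 FPKM, where the added 1 compresses differences. The ZT22 to ZT10 ratio of mean FPKM was 2.78 in KO and 7.89 in WT. With 0.1 added in place of 1 the day difference was 1.44 in KO and 2.1 in WT, and the interaction turned to -0.66 ± 0.27 (adjusted p = 0.245). That of Clock turned to -0.005 ± 0.21.

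Arntl, Clock and Npas2 are all known carriers of REV-ERB and ROR elements and all had higher levels in KO at both times. The list of such genes had 6 tested, of which 5 were higher at ZT22 in KO and 5 in WT, 4 were kept and Arntl was called for the interaction. Over all genes tested, 28.9% were higher in KO, 18.4% were higher in WT and 18.4% were kept. Under median-of-ratios scaling 3 of the list were higher and 1 lower in KO, and 3 higher in WT. Over all 9953 genes, that scaling gave 2036 higher and 2184 lower in KO, and 1192 higher in WT. Cry1, the repressor with such an element, had day differences of 0.53 ± 0.11 in KO and 0.36 ± 0.11 in WT, both called, but the WT call was lost in 6 of the 12 fits that left out a library (adjusted p up to 0.147). Nfil3, a repressor that competes with Dbp at D-boxes, had 56.8, 87.5 and 50.1 FPKM in KO at ZT22 and 108, 102 and 109.8 at ZT10, against 22.2, 37.5 and 13.2 in WT at ZT22 and 24.5, 23.7 and 18.9 at ZT10. Its times were separate in KO and overlapped in WT, with neither day difference nor the interaction called (-0.75 ± 0.41, limma adjusted p = 0.367). Under median-of-ratios scaling it was called lower at ZT22 in KO (adjusted p = 0.0227).

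Rora, the ROR receptor abundant in muscle, had 14.1, 13.7 and 17.03 FPKM in KO at ZT22 and 8.1, 7.55 and 9.57 at ZT10, against 14.3, 13.9 and 14.4 in WT at ZT22 and 12.4, 15.5 and 15.5 at ZT10. The KO ZT10 libraries were the low ones. The day difference was called in KO (0.76 ± 0.11, limma adjusted p = 0.000279) but not in WT (-0.01 ± 0.11, adjusted p = 0.94), and the interaction was 0.78 ± 0.16 (adjusted p = 0.0729). With the length trend removed the KO call was lost (adjusted p = 0.218) and WT was called lower at ZT22 (0.0144).

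Among the repressors, the interaction was called for 0 of 10 genes in limma, against 0.0402% of all genes tested. An unadjusted p under 0.05 was found for 4 (40%), 3 above (30%) and 1 below 0 (10%). Over all genes this share was 17%, 9.14% above and 7.9% below 0. Per2 had 2.41, 1.85 and 1.96 FPKM in KO at ZT22 and 2.9, 3.54 and 3.11 at ZT10, against 1.62, 1.88 and 1.42 in WT at ZT22 and 3.95, 4.35 and 4.44 at ZT10. It fell at ZT22 in both, by 0.45 in KO and 0.99 in WT, with an interaction of 0.55 ± 0.15 (adjusted p = 0.128). At these low values the added 1 compresses differences. With 0.1 added in place of 1 the day difference of Per2 was -0.60 in KO and -1.33 in WT (interaction 0.73 ± 0.21, limma adjusted p = 0.134). Ciart (CHRONO), a repressor of BMAL1 and CLOCK whose window with 3 E-boxes is shown above, had 6.08, 5.1 and 4.9 FPKM in KO at ZT22 and 11.3, 17.4 and 12.4 at ZT10. WT libraries had 1.25, 1.76 and 0.85 FPKM at ZT22 and 5.82, 5.6 and 3.52 at ZT10. It was kept, at -1.19 ± 0.19 in KO and -1.38 ± 0.19 in WT, with higher KO means at both times. Its WT values at ZT22 lie near 1 FPKM, where the added 1 compresses differences. With 0.1 added in place of 1 the day difference was -1.32 in KO and -1.89 in WT (interaction 0.57 ± 0.36, limma adjusted p = 0.439).

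The receptors themselves had day differences in WT that were not called in KO. Nr1d2 had 38.9, 37.6 and 36.3 FPKM in KO at ZT22 and 36.5, 40.6 and 40.2 at ZT10, against 29.7, 28.4 and 29.2 in WT at ZT22 and 37.5, 42.4 and 43.6 at ZT10. The difference was -0.05 ± 0.08 in KO and -0.48 ± 0.08 in WT, with an interaction of 0.43 ± 0.11 (limma adjusted p = 0.103). The KO difference was called with the length trend removed (adjusted p = 0.00669). For Nr1d1 it was -0.27 ± 0.15 in KO and 0.57 ± 0.15 in WT, with an interaction of -0.84 ± 0.21 (adjusted p = 0.103). Nr1d1 and Thra overlap on opposite strands and no source used here states whether counting used strand, so reads in the overlap may belong to either. Thra, a thyroid hormone receptor, was kept at 0.49 ± 0.10 in KO and 0.45 ± 0.10 in WT. Cry2 had a day difference of 0.03 ± 0.11 in KO and -0.37 ± 0.11 in WT (interaction 0.40 ± 0.16, adjusted p = 0.244). For Per1, Per3, Bhlhe40, Bhlhe41, Tef and Hlf no day difference was called in either genotype. Several of these calls sat near the threshold. The WT call was lost in 6 of the 12 fits that left out a library for Cry2 (adjusted p up to 0.134) and in 4 for Nr1d1 (up to 0.0807). Under median-of-ratios scaling Tef was called lower at ZT22 in KO (0.0365) and WT (0.0275), Per1 in WT (0.0392) and Nr1d1 in KO (0.0472), while Nr1d1 in WT was not (0.0506).

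**Figure D4:**
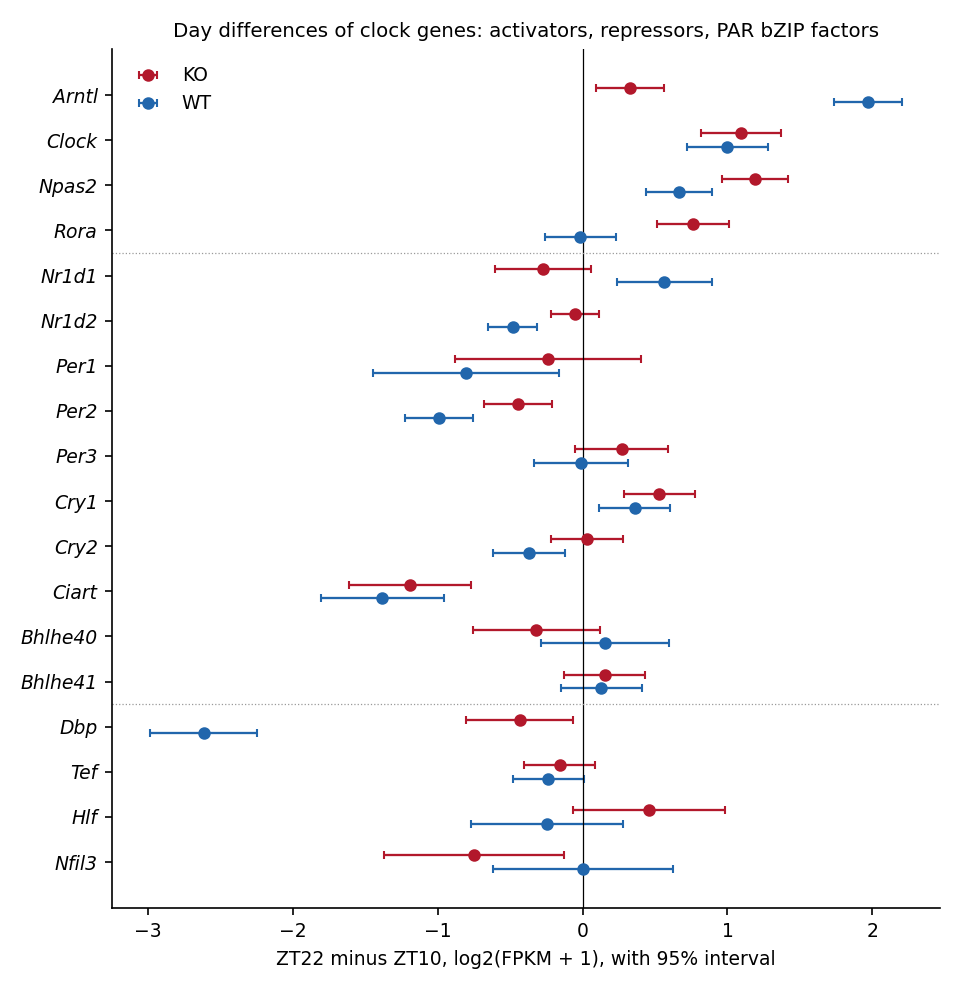
Day differences (ZT22 minus ZT10, log2) of 18 clock genes in KO (red) and WT (blue) with 95% intervals, in the order activators and Rora, repressors, PAR bZIP factors and Nfil3. The KO and WT intervals of Arntl and Dbp lie far apart, and those of Clock, Cry1 and Ciart overlap.

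Metabolic lists were described by counts, with no test of a list. Over all genes tested, 28.9% were higher and 13.7% lower at ZT22 in KO, 18.4% higher and 5.77% lower in WT, and 17% had an unadjusted p under 0.05 for the interaction. Of 20 glucocorticoid and fasting genes tested, 9 were lower and 2 higher at ZT22 in KO, 10 were lower and 0 higher in WT, and 8 were kept. Their median interaction was 0.15, against 0.003 over all genes, with 0 called in limma and 6 at an unadjusted p under 0.05. Members that were not kept included Fkbp5, a glucocorticoid-induced chaperone partner, which averaged 16.2 ± 4.42 FPKM at ZT22 and 7.78 ± 2.42 at ZT10 in KO, and 11.9 ± 1.69 at ZT22 and 13.7 ± 1.34 at ZT10 in WT. Its day difference was called in KO and not in WT, with an interaction of 1.17 ± 0.30 (adjusted p = 0.103). The metallothionein Mt2 had 11.5, 6.81 and 11.6 FPKM in KO at ZT22 and 7.11, 6.52 and 17.8 at ZT10, against 2.55, 2.95 and 3.47 in WT at ZT22 and 17.4, 195 and 17.02 at ZT10. Its interaction was 3.38 ± 1.00 (adjusted p = 0.138), the highest fitted value of all genes tested, and 2.23 (adjusted p = 0.146) without WT ZT10 replicate 2, whose level stood far above all others.

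In glycogen metabolism 5 of 16 genes were higher (31.2%) and 2 lower (12.5%) at ZT22 in KO, near the shares over all genes, against 0 higher and 2 lower in WT, and the median interaction was 0.23. Under median-of-ratios scaling the KO calls were 3 higher and 3 lower. None was called for the interaction in limma, and 6 had an unadjusted p under 0.05 (37.5%, against 17% of all genes), 5 of them above 0. Ugp2, which makes UDP-glucose, averaged 286 ± 34.2 FPKM at ZT22 and 171 ± 34.4 at ZT10 in KO, and 318 ± 59.4 at ZT22 and 393 ± 11.2 at ZT10 in WT (interaction 1.08 ± 0.22, adjusted p = 0.07). The targeting subunit Ppp1r3a and the phosphorylase kinase subunit Phkb were called in KO and not in WT, with interactions of 0.56 ± 0.20 and 0.48 ± 0.19. Of 27 glycolysis and glucose uptake genes, 13 were lower and 2 higher at ZT22 in KO, and 4 lower and 1 higher in WT. Aldoa, the most abundant, averaged 8962 ± 323 FPKM at ZT22 and 14380.4 ± 969 at ZT10 in KO, and 10570.0 ± 700.2 at ZT22 and 16998 ± 1388 at ZT10 in WT, and was kept with an interaction of 0.00 ± 0.13. The list's median interaction was 0.004, or -0.01 under median-of-ratios scaling, and 0 were called in limma. But 8 members had an unadjusted p under 0.05, all below 0 (29.6%, against 7.9% of all genes).

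Of 17 TCA cycle genes, 8 were lower and 0 higher at ZT22 in KO, against 1 lower and 0 higher in WT. Under median-of-ratios scaling 16 were lower in KO and 2 in WT. The interaction was below 0 in 16 of them, against 4941 of the 9953 genes tested. Its median was -0.24, with 0 called in limma and 8 at an unadjusted p under 0.05 (47.1%, against 17% of all genes). Suclg1, a succinyl-CoA ligase subunit, averaged 147 ± 4.14 FPKM at ZT22 and 185 ± 4.702 at ZT10 in KO, and 214 ± 11.2 at ZT22 and 205 ± 9.71 at ZT10 in WT (interaction -0.39 ± 0.10, adjusted p = 0.102). Of 64 respiratory chain genes, 42 were lower and 1 higher at ZT22 in KO, 26 lower and 1 higher in WT, and 26 were kept. Their median interaction was -0.27, with 0 called in limma and 25 at an unadjusted p under 0.05 (39.1%, against 17% of all genes). Ndufb7, a complex I subunit, averaged 170.1 ± 8.09 FPKM at ZT22 and 350.1 ± 9.86 at ZT10 in KO, and 243 ± 9.02 at ZT22 and 313 ± 43.6 at ZT10 in WT (interaction -0.68 ± 0.13, adjusted p = 0.0676). Cox6c, of complex IV, was kept at -1.02 ± 0.11 in KO and -0.97 ± 0.11 in WT.

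Of 68 ribosomal protein genes, 44 were lower and 0 higher at ZT22 in KO, and 13 lower and 5 higher in WT. Under median-of-ratios scaling these counts were 57 lower and 0 higher in KO and 24 lower and 2 higher in WT, and with a trend in transcript length removed, described next, 27 lower and 5 higher in KO and 11 lower and 10 higher in WT. Their median interaction was -0.29, with 0 called in limma and 37 at an unadjusted p under 0.05 (54.4%, against 17% of all genes). Many ribosomal protein genes have near-identical pseudogenes, so single values are uncertain. Both lists hold short transcripts, of median length 870 bases (respiratory) and 942 bases (ribosomal), against 3109 over all genes. Over the 9901 genes with a length, the day difference had a Pearson r with log length of 0.494 in KO and 0.372 in WT, and the interaction one of 0.255, as a description over genes that share libraries. The 1983 genes with the shortest transcripts had a median day difference of -0.19 in KO and -0.06 in WT, and the 1979 with the longest 0.41 in KO and 0.3 in WT. With this trend removed from each library, the median interaction was -0.1 for the respiratory chain, -0.14 for ribosomal proteins and -0.2 for the TCA cycle.

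**Figure D5:**
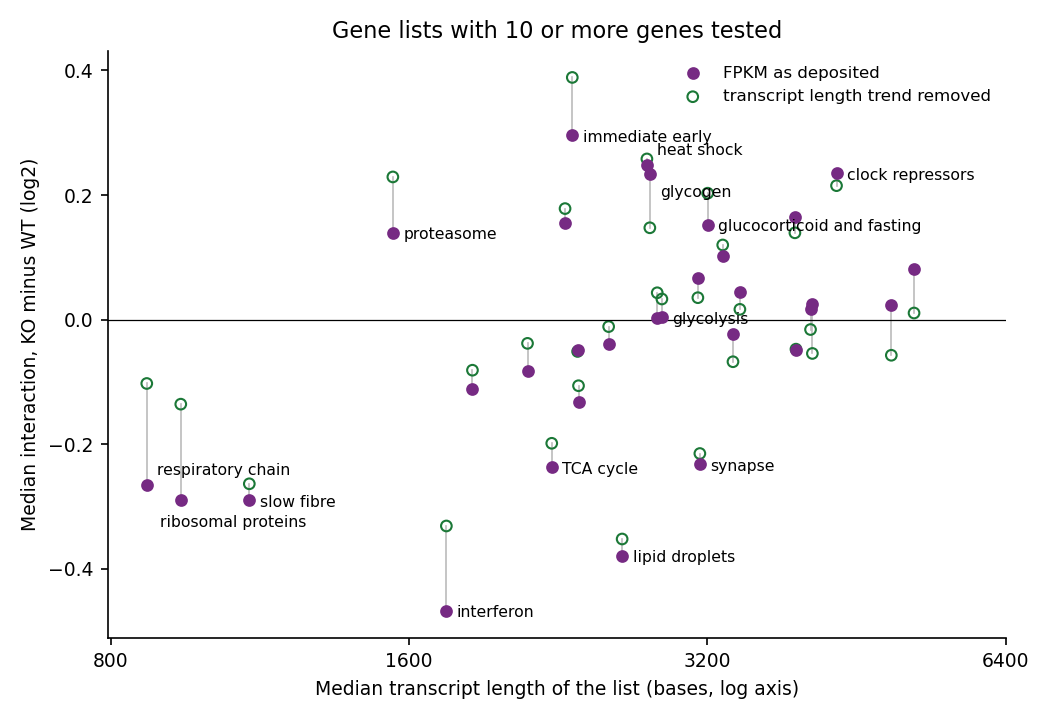
Median interaction (KO minus WT, log2) of each gene list with at least 10 genes tested against the median transcript length of the list (log axis), as deposited (filled) and with the length trend removed (open). With the trend removed the respiratory chain moves from -0.27 to -0.1 and the ribosomal proteins from -0.29 to -0.14, and the TCA cycle and heat shock lists move less.

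Chaperone and proteasome lists had median interactions above 0. Of 30 heat shock genes, 9 were higher (30%, against 28.9% of all genes) and 0 lower at ZT22 in KO, against 3 higher and 2 lower in WT. Under median-of-ratios scaling the counts were 4 higher and 1 lower in KO and 1 higher and 3 lower in WT. The interaction was above 0 in 25, against 5012 of the 9953 genes tested. Its median was 0.25 (0.26 without the length trend), with 0 called in limma and 4 at an unadjusted p under 0.05 (13.3%, against 17% of all genes). Chordc1, an HSP90 cochaperone, averaged 25.9 ± 0.401 FPKM at ZT22 and 14.4 ± 1.805 at ZT10 in KO, and 20.9 ± 0.5698 at ZT22 and 16.3 ± 1.06 at ZT10 in WT. Among 39 proteasome genes the KO calls were 9 higher and 9 lower and the WT calls 1 higher and 6 lower, which under median-of-ratios scaling became 4 higher and 13 lower in KO and 0 higher and 10 lower in WT. The median interaction was 0.14 (0.23 without the length trend), with 0 called in limma. An unadjusted p under 0.05 was found for 14 (35.9%, against 17% of all genes), 9 of them above 0 (23.1%, against 9.14%). Psmc6, an ATPase of the cap, had an interaction of 0.38 ± 0.09, and the immunoproteasome subunit Psmb10 one of -0.59 ± 0.14 (adjusted p = 0.0833 and 0.0926).

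Interferon response and antigen presentation genes had interactions below 0 in 14 of 15, against 4941 of the 9953 genes tested. Their median interaction was -0.47 (-0.33 without the length trend), with 0 called in limma. An unadjusted p under 0.05 was found for 6, all below 0 (40%, against 7.9% of all genes). The median transcript length of this list was 1745 bases, against 3109 over all genes. Irf7, a master factor of the interferon response, averaged 1.48 ± 0.206 FPKM at ZT22 and 1.66 ± 0.381 at ZT10 in KO, and 2.97 ± 0.8504 at ZT22 and 1.06 ± 0.0693 at ZT10 in WT (interaction -1.02 ± 0.22, adjusted p = 0.0753). Without WT ZT22 replicate 3, 18 genes were called, among them Irf7, the interferon-induced Bst2 and the antigen presentation genes H2-K1 and H2-T23, whose values are uncertain since H2 genes are near-identical. The 8 macrophage markers summed to 41.7 to 80.4 FPKM at ZT22 and 44.9 to 84.2 at ZT10 in KO, and 41.4 to 55.9 at ZT22 and 47.0 to 65.0 at ZT10 in WT, and their part in the result was not tested. In whole muscle, fewer cells of a type and less RNA per cell cannot be told apart.

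Of 21 lipid synthesis genes, 5 were higher (23.8%, against 28.9% of all genes) and 2 lower (9.52%, against 13.7%) at ZT22 in KO, and 6 higher and 1 lower in WT. Their median interaction was -0.05, with 0 called in limma and 5 at an unadjusted p under 0.05 (23.8%, against 17% of all genes). The stearoyl-CoA desaturase Scd1 rose at ZT22 in WT (1.55 ± 0.38, not called without WT ZT22 replicate 2, adjusted p = 0.0528), was not called in KO (0.18 ± 0.38) and had an interaction of -1.37 ± 0.53 (adjusted p = 0.223). Among 17 lipid droplet genes the median interaction was -0.38, with 0 called in limma. An unadjusted p under 0.05 was found for 6 (35.3%, against 17% of all genes), 4 below and 2 above 0. The droplet coat gene Plin4 had the highest interaction of the list, against the sign of its median. It averaged 65.7 ± 4.31 FPKM at ZT22 and 59.1 ± 4.05 at ZT10 in KO, and 51.1 ± 6.24 at ZT22 and 75.9 ± 8.24 at ZT10 in WT (interaction 0.71 ± 0.15, adjusted p = 0.0729).

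Adipocyte markers are given beside these lists, since whole muscle holds fat cells, and their part in the result was not tested. Of 11 markers, 10 were in the table and none was at 0 in a whole group. They summed to 211 to 389 FPKM at ZT22 and 217 to 415 at ZT10 in KO, and 887 to 1868 at ZT22 and 1403 to 1674 at ZT10 in WT, sums that include Car3, which muscle fibres also express. The 7 tested had a median interaction of -0.84, with 0 called in limma and 3 at an unadjusted p under 0.05, all below 0 (42.9%, against 7.9% of all genes). Adipoq, which defines adipocytes, averaged 3.07 ± 0.609 FPKM at ZT22 and 4.73 ± 2.57 at ZT10 in KO, and 5.37 ± 1.97 at ZT22 and 2.45 ± 0.746 at ZT10 in WT. Of 8 endothelial markers, 5 were higher and 1 lower at ZT22 in KO, 5 higher and 0 lower in WT, and 5 were kept. Over all genes tested, 28.9% were higher and 13.7% lower in KO, 18.4% higher and 5.77% lower in WT, and 18.4% were kept. The marker lower in KO was Egfl7 (-0.49 ± 0.10, limma adjusted p = 0.00142). Its WT day difference was 0.28 ± 0.10 (adjusted p = 0.0521) and its interaction -0.77 ± 0.13 (adjusted p = 0.0676).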

How the data were processed

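RNA sequencing was done on 12 libraries of mouse tibialis anterior, grouped by sample title. The authors deposited FPKM values per library. The unit is not named in the header and was read from the values, which sum to 1167955 to 1234165 per library when multiplied by transcript length in kb. DESeq2 1.8.2, HISAT2, HTSeq, GRCm38 and mm10 appear in the submitters' processing notes with no role or order. The counting annotation and strand use: not given in the sources used here. Of 14583 entries, 82 without values and 230 exact repeats were dropped, and for Plin2, with 2 differing entries, the higher mean was kept. Symbols of 14081 of 14270 genes matched GENCODE M21, which gave positions and lengths. Of the library columns, 0 were unused, and 0 genes were mitochondrially encoded. Depth is a rough estimate from weak steps (mean cosine 0.282 to 0.425) and carries no interval. The deposited fold change, p and q columns were not used.

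Genes averaging at least 1 FPKM were fitted on log2(FPKM + 1) with limma 3.58.1 (R 4.3.3), 1 mean per group, an intensity trend and Benjamini-Hochberg adjustment within each comparison, at 0.05. The log2 scale with a pseudocount of 1 understates changes of weak genes. The fit was tested on simulated data. The genes, lists and rules were chosen with earlier results of these data known. Genes were named by rule: clock genes, the 25 smallest adjusted p of the interaction, the 8 largest per class, the 12 most strongly changed genes kept within 1.5-fold, and in other lists up to 4 called members or the most abundant. Other members are named from the full lists and, where stated, after their values were seen, and some genes that the rules name are not reported here. The alternatives were a pseudocount of 0.1, no filter, median-of-ratios scaling, a length trend removed by lowess (span 0.3), a replicate block, a robust empirical Bayes step and each library left out in turn. Tables and plots used Python 3.11.15 with matplotlib 3.10.9, pandas 2.3.3, numpy 2.4.6 and scipy 1.17.1.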

Additional observations from a re-analysis of the deposited data

Results flagged for a closer look

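For 4 genes the day difference itself differed between KO and WT by the interaction test. The interaction was -1.64 for Arntl and 2.18 for Dbp (limma adjusted p = 0.0012 and 0.00399), with the smaller day difference in KO and a KO level above WT at both times. It was 1.15 for Gpcpd1 and -1.09 for Slc38a10 (limma adjusted p = 0.023 for both), with day differences of opposite sign in KO and WT. Groups of 3 were too small for a search for outlying samples.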

How the results depend on the processing

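Removing the transcript length trend gave 11 genes called for the interaction, 5 flattened, 0 reversed, 2 enlarged, 4 gained and 1092 kept. Calling the interaction at an adjusted p under 0.1, chosen after seeing the data, gave 148 genes, with 23 flattened, 14 reversed, 19 enlarged and 92 gained. Median-of-ratios scaling gave 3 interaction calls, 0 reversed and 1 gained, and no filter on low values 1 reversed and 1 gained. Leaving out each library in turn gave 2 to 77 interaction calls, 3328 to 4247 genes for the day difference in KO and 1290 to 2929 in WT, 2 to 8 flattened, 0 to 13 reversed, 0 to 15 enlarged, 0 to 51 gained, 1083 to 2043 kept and 627 to 1365 kept within 1.5-fold. Arntl and Dbp were called in each of these fits, with adjusted p up to 0.0087 and 0.0276 when a library was left out. The replicate number as a block gave 5 interaction calls, including the same 4 genes. The numbers paired the libraries weakly if at all (same-number correlations -0.134 to 0.21, over 0.1 in 2 of 18 pairs, and 7 of 12 libraries closest to their own number). Over the named genes and alternatives, 2840 results kept direction and side of the threshold, 74 lost and 43 gained a call, and 31 changed sign, none of them called before or after. With the length trend removed these were Gps2 (0.0836), Psmb7 (0.1129) and Bhlhe41 (-0.0773). Kept genes entered these totals by their day differences and not by their interaction. With a pseudocount of 0.1 the interaction also changed sign for Npas2, Clock, Zbtb37, Peg3, Itga1 and Hoxc11, none of them called. When a library was left out, the interactions ran from -0.0737 to 0.4023 for Lpl, from -0.0289 to 0.1985 for Tef, from -0.0938 to 0.2977 for Sparc, from -0.1455 to 0.3177 for Dcn, from -0.0951 to 0.0504 for Gps2, from -0.0785 to 0.0345 for Fech, from -0.0863 to 0.0674 for Psmb7, from -0.0974 to 0.0943 for Bhlhe41 and from -0.0678 to 0.0576 for Dld. The causes were not tested. Depth is known too roughly to set a limit per gene.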
